A study of Mus musculus with 18 samples.

Results

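The 9 genes described here hold back the cell cycle and were followed through all 18 libraries: Cdkn1a, Cdkn1b, Cdkn1c, Cdkn2b, Cdkn2c, Cdkn2d, Ccng2, Btg1 and Btg2. They were taken by symbol, and all 9 were found among the 25628 genes of experiment 1 and the 26903 genes of experiment 2. All 9 also passed the filter on low counts, with 13811 genes left to test in experiment 1, and 15051 in experiment 2. Cdkn1c passed in experiment 2 mainly through the entinostat groups: 0 of 3 NoDox_DMSO libraries and 2 of 3 Dox_DMSO libraries reached its limit of 0.213 CPM (counts relative to the scaled library size), so that its call there is no independent support.

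The cells were the mouse erythroleukemic line #763, leukemic erythroid cells of TgSpi1 bone marrow in which SPI1 (also called PU.1), a transcription factor, is made in excess, kept growing in medium with erythropoietin (EPO). All 6 groups carried the transgene and a short hairpin RNA (shRNA) against Spi1 that doxycycline (dox) induces, and the labels name no control hairpin. In experiment 1, Exp1_NoDox cells had no doxycycline and Exp1_Dox cells had it for 48 h. In experiment 2, NoDox_DMSO and Dox_DMSO cells received the solvent DMSO for 6 h, and NoDox_Entinostat and Dox_Entinostat cells received 3 µM entinostat for 6 h, without or with 48 h of doxycycline. Entinostat is a benzamide that inhibits class I histone deacetylases. Each group had 3 libraries, which the labels call biological replicates. Everything comes from 1 line, so the p-values speak of its cultures, and an effect of doxycycline itself cannot be told apart from one of the hairpin.

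A cell passes from G1 into S phase when cyclin-dependent kinases (CDKs) phosphorylate RB proteins and so release E2F factors. The CIP/KIP proteins p21 (Cdkn1a), p27 (Cdkn1b) and p57 (Cdkn1c) bind cyclin-CDK complexes, chiefly those of CDK2, whereas the INK4 proteins p15 (Cdkn2b), p18 (Cdkn2c) and p19 (Cdkn2d) bind CDK4 and CDK6. Cyclin G2 (Ccng2) is an unusual cyclin that is abundant in resting cells, and BTG1 and BTG2 are antiproliferative proteins that bind the CCR4-NOT deadenylase. In the erythroid lineage p27 and p18 are known to accumulate as precursors leave the cycle, and Cdkn1a is widely known as a gene that rises when histone deacetylases are inhibited.

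Spi1, the target of the hairpin, measured 379, 455 and 459 CPM without doxycycline in experiment 1 and 133, 125 and 132 CPM with it. It fell by 1.73 ± 0.10 on the log2 scale (SE, n = 3 per group). In experiment 2 it stood at 200, 259 and 251 CPM in NoDox_DMSO and at 59.5, 126 and 105 CPM in Dox_DMSO. Each library of experiment 1 held between 82.7 M and 114 M counts, and each of experiment 2 between 43.1 M and 48.9 M. The first Dox_DMSO and the first NoDox_Entinostat libraries stood apart: their mean rank correlation with their own group was 0.976 and 0.968, against 0.982 or more for the other 10 libraries of experiment 2. They hold the lowest Spi1 level of Dox_DMSO and the lowest of NoDox_Entinostat. Values without both are given below for some members and lists, not always those whose calls moved most. These 2 libraries were picked from the data themselves, carry the same replicate number and deviated together (r = 0.780). The p-values without them are thus descriptive and no independent support. All 12 erythroid markers were above 1 CPM in each of the 6 groups.

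Promoter sequences place the genes, and 5 are printed: those of Cdkn1a, Ccng2 and Btg2, members with large fold changes under entinostat, and that of Cdkn2d, which was not called without doxycycline. RefSeq promoters on mm10 (250 bases before the start to 50 after it) matched 8 of 9 members, all but Cdkn1c. Each runs 5′ to 3′ on the strand of its gene. Both strands were searched for 7 motifs, and capitals mark each match. The GC box was spelled GGGCGG and the core of PU.1 sites GAGGAA. For GATA factors the letters were AGATAA, and for an E-box CACGTG. The CCAAT box is named by its letters, the TATA box was searched as TATAAA and the FOXO motif as GTAAACA. The 2 starts of Cdkn1a lie on the plus strand at chr17:29090729-29091028 and chr17:29093519-29093818, Cdkn2d on the minus strand at chr9:21291160-21291459, Ccng2 on the plus strand at chr5:93267323-93267622, and Btg2 on the minus strand at chr1:134079106-134079405.
Cdkn1a first start: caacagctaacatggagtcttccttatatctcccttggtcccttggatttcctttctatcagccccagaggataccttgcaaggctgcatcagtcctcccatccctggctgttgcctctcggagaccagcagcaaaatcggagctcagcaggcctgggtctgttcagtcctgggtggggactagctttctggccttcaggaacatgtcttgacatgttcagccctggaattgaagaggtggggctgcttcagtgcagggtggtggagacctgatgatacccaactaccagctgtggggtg
Cdkn1a second start: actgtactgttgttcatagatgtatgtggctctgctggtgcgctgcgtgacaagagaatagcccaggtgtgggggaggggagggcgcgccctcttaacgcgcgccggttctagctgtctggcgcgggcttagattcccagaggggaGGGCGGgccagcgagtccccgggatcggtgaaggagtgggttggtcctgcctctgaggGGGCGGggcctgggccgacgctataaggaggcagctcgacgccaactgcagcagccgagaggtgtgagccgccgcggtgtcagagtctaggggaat
Cdkn2d: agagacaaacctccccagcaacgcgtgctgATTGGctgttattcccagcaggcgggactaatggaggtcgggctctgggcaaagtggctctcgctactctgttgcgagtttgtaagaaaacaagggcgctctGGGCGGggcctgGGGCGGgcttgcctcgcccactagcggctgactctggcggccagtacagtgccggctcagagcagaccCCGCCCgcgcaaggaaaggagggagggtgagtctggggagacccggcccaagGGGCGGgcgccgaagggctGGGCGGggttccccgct
Ccng2: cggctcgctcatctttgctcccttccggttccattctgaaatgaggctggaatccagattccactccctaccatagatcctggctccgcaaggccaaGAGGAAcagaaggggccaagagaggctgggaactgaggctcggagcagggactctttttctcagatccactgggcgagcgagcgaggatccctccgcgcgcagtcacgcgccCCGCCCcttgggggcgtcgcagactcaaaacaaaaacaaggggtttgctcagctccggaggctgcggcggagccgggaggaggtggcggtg
Btg2: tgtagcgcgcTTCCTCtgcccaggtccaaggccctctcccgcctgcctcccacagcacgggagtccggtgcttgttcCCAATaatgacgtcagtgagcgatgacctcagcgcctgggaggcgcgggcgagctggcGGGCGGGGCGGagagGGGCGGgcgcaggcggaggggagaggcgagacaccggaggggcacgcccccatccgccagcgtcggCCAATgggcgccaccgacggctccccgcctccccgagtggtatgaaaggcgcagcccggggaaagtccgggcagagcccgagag
The upstream start of Cdkn1a has 2 CpG dinucleotides and none of the 7 motifs, while the downstream start has 23 CpG and 2 GC boxes. The Cdkn2d promoter has 22 CpG, 5 GC boxes and 1 CCAAT box. Ccng2 has 21 CpG, 1 GC box and 1 PU.1 core, and Btg2 has 32 CpG, 3 GC boxes of which the first 2 share letters, 2 CCAAT boxes and 1 PU.1 core. Of 32851 promoters of the same length, 35.7% hold the GC box, 37.4% the CCAAT box, 28.3% the PU.1 core, 13.6% the TATA box, 11.2% the GATA motif, 7.15% the E-box and 3.65% the FOXO motif, and the median CpG count is 7. These are letter matches in a window and do not show that a factor binds there, and the counts do not tell which Cdkn1a start was used.

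With entinostat most of the 9 genes were called higher. Without doxycycline 7 of 9 rose (adjusted p under 0.05, edgeR), where 47.2% of all 15051 genes tested were called and 30.3% called higher, and 8 of 9 had groups that did not overlap with the higher values in entinostat, against 33.8% of all genes. With doxycycline 7 of 9 rose again, where 63.7% of all genes were called and 33.9% called higher, and 8 of 9 did not overlap with the higher values in entinostat, against 35.4%. The pair of treatments together raised 8 of 9 over NoDox_DMSO, where 35.5% of all genes were called higher, and 9 of 9 were higher without overlap, against 42.3%. No member was called lower in any of these 3 comparisons, nor by DESeq2 or limma-voom (0 of 9 each). At an unadjusted p under 0.05, 8, 7 and 8 of 9 were higher and 0 lower, where 53.4%, 67.4% and 68.5% of all genes passed in either direction. Cdkn1c is among both sets of 7, and without it the counts are 6 of 8. It is also among the 8 raised by both treatments together, and among the members counted without overlap and at an unadjusted p in all 3 comparisons. Its part in those counts is no independent support either. The median log2 fold change of the 9 genes was 1.02 without doxycycline and 1.10 with it, beside 0.07 and 0.14 over all genes tested. Scaling by library size alone moved the median of all genes from 0.07 to 0.32 without doxycycline and the share of calls that were higher from 64.1% to 81.5%, so fold changes are read against that shift.

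With doxycycline the 9 genes lay on both sides of 0. In experiment 1, 3 of 9 rose (Cdkn1a, Cdkn2c and Btg2), where 13.6% of all 13811 genes tested were called and 5.26% called higher. None was called lower by edgeR or limma-voom, although DESeq2 called 1 lower, and 8.36% of all genes were called lower. At an unadjusted p under 0.05, 4 were higher and 3 lower, where 26.2% of all genes passed. Groups did not overlap for 3 members with higher and 2 with lower values, against 32.1% of all genes. Same-numbered libraries of experiment 1 deviated together, and a fit that blocks on those numbers called all 9, 6 higher and 3 lower (Cdkn2b, Cdkn2d and Ccng2), as were 7027 of all 13811 genes. In DMSO in experiment 2, Cdkn2c rose and Ccng2 fell, where 9.31% of all genes were called, and 6 of 9 did not overlap (4 higher, 2 lower), against 25.8%. There the block called 6 of 9, with Cdkn1a, Cdkn1c and Btg2 higher and Cdkn2d lower in addition, as were 2033 of all 15051 genes (13.5%). Cdkn1c, which passed the filter mainly through the entinostat groups, is in both of these counts of 6. In entinostat 1 member, Cdkn2c, rose, where 24% of all genes were called, and 2 of 9 did not overlap, against 37.6%. The sign of the doxycycline effect was the same in experiment 1 and in DMSO for 9 of 9 members and for 81.6% of the 12643 genes tested in both, which share no library.

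**Figure D1:**
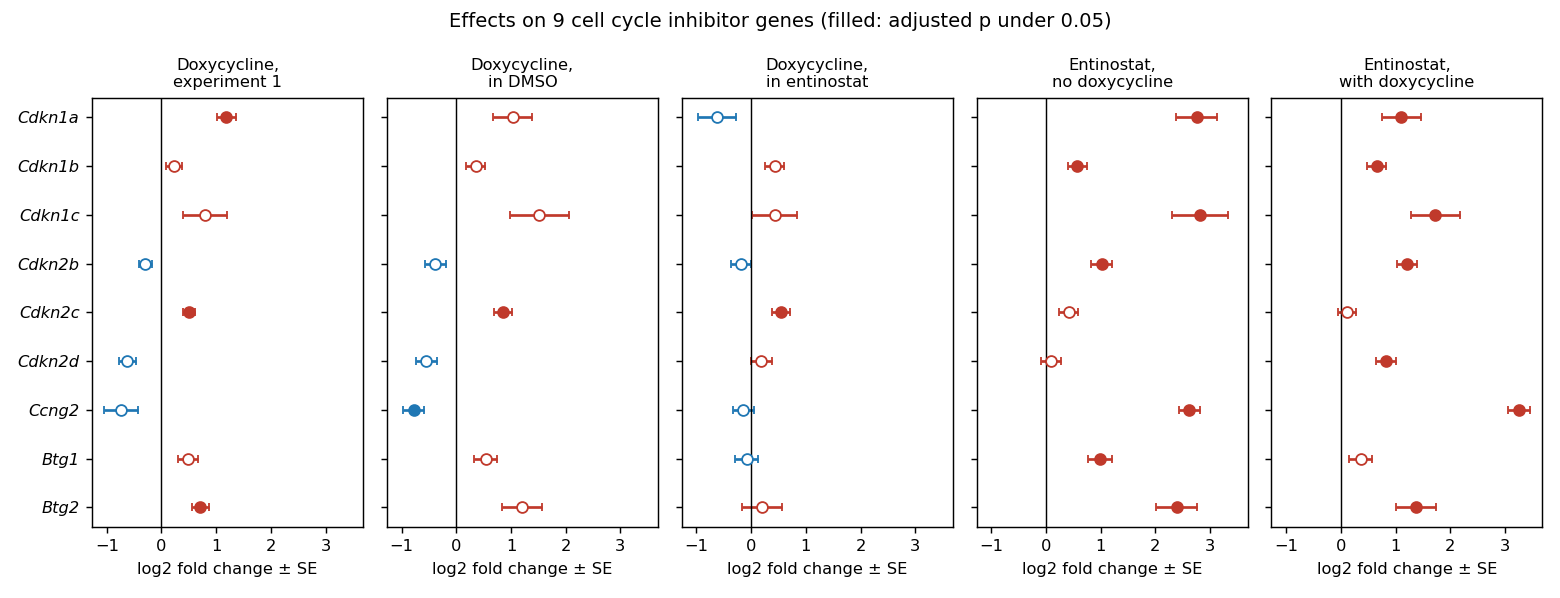
Log2 fold change with its standard error for the 9 genes in 5 comparisons (columns), from edgeR with 3 libraries per group. Filled points have an adjusted p under 0.05; the entinostat columns lie at or right of 0 for all 9 genes, with Ccng2 at 2.62 and 3.26, and the doxycycline columns fall on both sides.

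Cdkn1a (p21, ENSMUSG00000023067) lies on mm10 at chr17:29090976-29100727 on the plus strand, with 4 merged exons. In experiment 1 it measured 4.33, 5.90 and 4.41 CPM without doxycycline and 9.31, 12.5 and 11.5 CPM with it. All 3 doxycycline libraries lay above all 3 others. The log2 fold change was 1.19 ± 0.18 (2.28-fold, adjusted p = 0.00854, edgeR), with 1.93% of genes tested ranking above it. Within replicate numbers the log2 ratio was 1.11, 1.09 and 1.39. The call was lost without Exp1_NoDox replicate 3 (adjusted p = 0.0541).

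In experiment 2 Cdkn1a measured 4.07, 6.86 and 6.00 CPM in NoDox_DMSO and 5.55, 13.8 and 15.2 CPM in Dox_DMSO. The first Dox_DMSO library lay inside the range of the untreated group although its Spi1 level was the lowest of all 18 libraries, and the other 2 were above it. The log2 difference was 1.03 ± 0.36 and did not pass the test (adjusted p = 0.107, edgeR). It was 0.96 with the replicate block (adjusted p = 0.00275) and 1.36 without the 2 libraries that stood apart (adjusted p = 0.00014). Also past the threshold were DESeq2 (adjusted p = 0.04996) and, in edgeR, no filter on low counts (0.0172). So were the fits without Dox_DMSO replicate 1 (0.00659) or NoDox_Entinostat replicate 1 (0.0481). Together 6 of 21 alternatives passed.

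With entinostat Cdkn1a reached 23.7, 46.5 and 44.5 CPM without doxycycline and 19.2, 27.0 and 28.0 CPM with it. Every entinostat library exceeded every DMSO library. Entinostat raised it 6.77-fold without doxycycline (log2 2.76 ± 0.38, adjusted p = 8.3e-05) and 2.15-fold with it (log2 1.10 ± 0.36, adjusted p = 0.0163). The second of these calls was lost without Dox_Entinostat replicate 2 (adjusted p = 0.0541) or replicate 3 (adjusted p = 0.0537). In order of mean level the groups of experiment 2 ran from NoDox_DMSO at 5.64 ± 1.43 CPM (SD, n = 3) through Dox_DMSO at 11.5 ± 5.22 and Dox_Entinostat at 24.8 ± 4.80 to NoDox_Entinostat at 38.2 ± 12.6 CPM. NoDox_DMSO and Dox_DMSO overlapped, as did the pair of entinostat groups, while Dox_DMSO and Dox_Entinostat did not.

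The doxycycline difference in Cdkn1a had opposite signs in DMSO and in entinostat. In entinostat the log2 difference was -0.63 ± 0.35 (adjusted p = 0.189), not past the threshold. The interaction (effect of doxycycline under entinostat less its effect under DMSO) was -1.66 ± 0.50, with a 95% interval from -2.75 to -0.57 and an unadjusted p of 0.00595 (edgeR, adjusted p = 0.267). Without the 2 libraries that stood apart it was -2.24 (adjusted p = 1.1e-05), and the doxycycline effect in entinostat was -0.88 (adjusted p = 0.000803). Those libraries held the lowest Cdkn1a values of Dox_DMSO and NoDox_Entinostat (5.55 and 23.7 CPM), the groups whose levels enter the interaction with a minus sign. Leaving out either thus lowers the interaction by construction. With all 12 libraries it was also called under the replicate block (-1.54, adjusted p = 0.0105) and with no filter on low counts (-1.75, adjusted p = 0.0135), and it was called without NoDox_Entinostat replicate 1 alone (-1.91, adjusted p = 0.0330) or Dox_DMSO replicate 1 alone (-1.99, adjusted p = 0.0211). The other alternatives did not call it. Replicate numbers did not pair all groups of experiment 2 by the limit of 0.1 on r, so the blocked value is descriptive. Exons of Cdkn1a share 273 bases, 7.68% of their length, with AC167363.2 on the other strand, and reads from both cannot be told apart without strand.

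Cdkn1b (p27, ENSMUSG00000003031) is at chr6:134920401-134925513 on the plus strand. Without doxycycline in experiment 1 it measured 35.3, 45.6 and 44.1 CPM, and 40.9, 54.3 and 50.9 CPM with it. The groups overlapped and the log2 difference was 0.22 ± 0.15 (adjusted p = 0.430), whereas the block, over pair ratios of 0.21, 0.25 and 0.21, gave 0.22 with an adjusted p of 0.00168. In experiment 2 it measured 52.1, 47.6 and 56.1 CPM in NoDox_DMSO, 79.4, 59.2 and 60.5 CPM in Dox_DMSO, 90.8, 66.4 and 74.4 CPM in NoDox_Entinostat, and 96.4, 98.9 and 118 CPM in Dox_Entinostat. NoDox_DMSO was the lowest group and Dox_Entinostat the highest, each clear of the rest, and the 2 in between overlapped. Entinostat raised it by a log2 of 0.57 ± 0.17 without doxycycline (adjusted p = 0.0159) and 0.65 ± 0.17 with it (adjusted p = 0.00559). The first of these calls was lost without NoDox_DMSO replicate 1 (adjusted p = 0.0561), NoDox_DMSO replicate 2 (0.0739) or NoDox_Entinostat replicate 1 (0.0532). Both treatments together gave 2.01-fold (log2 1.01 ± 0.17, adjusted p = 0.00032), and the interaction was 0.08 ± 0.25, with an interval from -0.45 to 0.61. In entinostat the doxycycline difference of 0.43 ± 0.17 did not pass (adjusted p = 0.0808), but it did by DESeq2 (0.0375), with the block (0.0329), without NoDox_Entinostat replicate 1 (0.0190), without Dox_DMSO replicate 1 (0.0432) and, at 0.56, without both of those libraries (0.00077). Replicate numbers did not pair the 2 entinostat groups by the limit of 0.1 on r (0.065, 0.079 and 0.072), so the blocked value is descriptive.

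Cdkn1c (p57, ENSMUSG00000037664), an imprinted gene at chr7:143458339-143461050 on the minus strand, was the rarest member. Its counts in experiment 2 were 5, 5 and 6 in NoDox_DMSO, 8, 15 and 23 in Dox_DMSO, 29, 59 and 45 in NoDox_Entinostat and 25, 76 and 51 in Dox_Entinostat. On the CPM scale the means were 0.117, 0.339, 0.84 and 1.14, and the entinostat groups lay above both DMSO groups. The log2 fold change with entinostat was 2.82 ± 0.51 without doxycycline (adjusted p = 0.000634) and 1.73 ± 0.45 with it (adjusted p = 0.00474). Its levels in experiment 1 were 0.264, 0.135 and 0.225 CPM without and 0.477, 0.204 and 0.39 CPM with doxycycline, overlapping ranges with a log2 difference of 0.79 ± 0.40 (adjusted p = 0.282) that was 0.76 with the block (adjusted p = 0.0171). Its exons share 625 bases, 30.7% of their length, with Gm44732 on the other strand, a gene with 0 or 1 count in each library of experiment 2.

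Among the INK4 genes the direction under doxycycline differed. Cdkn2c (p18, ENSMUSG00000028551, chr4:109660876-109667189, minus strand) rose with doxycycline in all 3 settings. Its level in experiment 1 went from 42.6, 53.3 and 50.6 CPM to 65.2, 70.1 and 72.2 CPM. Its groups did not overlap, and the log2 fold change was 0.50 ± 0.11 (adjusted p = 0.0283). That call was lost without Exp1_NoDox replicate 3 (adjusted p = 0.112), Exp1_Dox replicate 2 (0.0948) or Exp1_Dox replicate 3 (0.105), and the block gave 0.51 (adjusted p = 3.1e-05). In DMSO it went from 35.4, 36.5 and 35.8 CPM to 49, 70.2 and 75.0 CPM, groups without overlap, at a log2 of 0.85 ± 0.17 (adjusted p = 0.00528).

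In entinostat Cdkn2c measured 48.4, 46.9 and 47.8 CPM without doxycycline and 60.9, 74.8 and 73.4 CPM with it. All 3 doxycycline libraries were the higher ones. The log2 fold change of 0.55 ± 0.17 (adjusted p = 0.0342) lost its call when any of 7 libraries was left out, with adjusted p from 0.0538 to 0.124: all 3 of NoDox_DMSO, replicates 2 and 3 of NoDox_Entinostat and replicates 2 and 3 of Dox_Entinostat. Entinostat itself left it at a log2 of 0.41 ± 0.17 without doxycycline (adjusted p = 0.0586), although the groups did not overlap, and at 0.11 ± 0.17 with it (adjusted p = 0.586), where they did. The first of these differences was called under 6 alternatives: library size alone (0.66, adjusted p = 0.0114), 1 CPM as the filter (0.0267), the block (0.0276), the 2 groups alone (0.0234), without Dox_DMSO replicate 1 (0.0191) and without both libraries that stood apart (0.40, adjusted p = 0.00425). Same-numbered libraries of NoDox_DMSO and NoDox_Entinostat had r = 0.336, 0.315 and 0.0964, not all above the limit of 0.1, so the blocked value is descriptive. The order of groups was NoDox_DMSO at 35.9 ± 0.547 CPM, NoDox_Entinostat at 47.7 ± 0.745, Dox_DMSO at 64.7 ± 13.8 and Dox_Entinostat at 69.7 ± 7.66 CPM, and the last 2 overlapped.

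Cdkn2d (p19, ENSMUSG00000096472, chr9:21288410-21291407, minus strand) had the lower values with doxycycline in DMSO and in experiment 1. It measured 8.93, 11.4 and 11.4 CPM without and 5.64, 7.46 and 7.42 CPM with doxycycline in experiment 1. The groups did not overlap and the log2 difference of -0.62 ± 0.16 lay just outside the threshold (adjusted p = 0.0519), with pair ratios of -0.66, -0.61 and -0.61 and an adjusted p of 3.0e-05 with the block. DESeq2 called it (adjusted p = 0.00577), as did edgeR with library size alone (0.0486) or 1 CPM as the filter (0.0473). It also passed without Exp1_NoDox replicate 1 (0.0484), making 5 of 14 alternatives. In DMSO it was at 12.6, 11.5 and 12.8 CPM without and 9.46, 7.54 and 8.27 CPM with doxycycline. The groups again did not overlap, at a log2 of -0.55 ± 0.19 (adjusted p = 0.104, with the block 0.0465, without the 2 libraries that stood apart 0.0056). It also passed without NoDox_Entinostat replicate 1 (adjusted p = 0.0494, edgeR), making 3 of 21 alternatives.

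With entinostat Cdkn2d measured 16.1, 10.7 and 12.5 CPM without doxycycline and 12.9, 14.3 and 17.5 CPM with it. Entinostat raised it in doxycycline-treated cells by a log2 of 0.82 ± 0.19 (1.77-fold, adjusted p = 0.00231) and left it at 0.09 ± 0.19 in untreated ones (adjusted p = 0.731), where the ranges overlapped. The test of that difference, the interaction, gave 0.73 ± 0.27 with an unadjusted p of 0.0167 (adjusted p = 0.314). Without the 2 libraries that stood apart it was 1.0 (adjusted p = 0.00118).

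Cdkn2b (p15, ENSMUSG00000073802, chr4:89306299-89311039, minus strand), a textbook target of TGF-beta signalling, rose with entinostat both without and with doxycycline. It measured 5.44, 7.15 and 8.31 CPM in NoDox_DMSO, 5.23, 5.14 and 5.67 CPM in Dox_DMSO, 14.1, 12.9 and 15.3 CPM in NoDox_Entinostat and 12, 11 and 14 CPM in Dox_Entinostat. Each entinostat library lay above each DMSO library. The log2 fold change was 1.02 ± 0.18 without doxycycline (adjusted p = 0.000634) and 1.21 ± 0.19 with it (adjusted p = 0.000148), and the interval of their difference ran from -0.37 to 0.75. In experiment 1 it went from 7.0, 8.70 and 7.38 CPM to 6.32, 6.55 and 5.90 CPM. Those groups did not overlap, at a log2 of -0.30 ± 0.12 (adjusted p = 0.176, with the block 0.00872).

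Ccng2 (cyclin G2, ENSMUSG00000029385, chr5:93267257-93276231, plus strand) had the largest fold change with entinostat of the 9 genes in doxycycline-treated cells. It measured 8.88, 9.93 and 14.7 CPM in NoDox_DMSO and 72.4, 64.9 and 68.7 CPM in NoDox_Entinostat. In doxycycline-treated cells it measured 7.22, 5.83 and 6.48 CPM with DMSO and 58.2, 58.7 and 69.9 CPM with entinostat. The gap between DMSO and entinostat libraries was wide, and replicates lay close together in entinostat. The fold change was 6.15 without doxycycline (log2 2.62 ± 0.20, adjusted p = 1.3e-06) and 9.56 with it (log2 3.26 ± 0.20, adjusted p = 2.6e-07).

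Doxycycline lowered Ccng2 in DMSO by a log2 of -0.78 ± 0.19 (adjusted p = 0.0203), with groups that did not overlap. That call was lost without NoDox_DMSO replicate 3 (-0.53, adjusted p = 0.12), Dox_DMSO replicate 2 (0.096) or Dox_DMSO replicate 3 (0.0714), and when the 2 groups were fitted alone (0.0869). In experiment 1 it measured 6.19, 9.77 and 11.1 CPM without and 3.55, 6.26 and 6.45 CPM with doxycycline. The ranges overlapped, with Exp1_NoDox replicate 1 below doxycycline replicates 2 and 3, and the log2 difference was -0.74 ± 0.30 (adjusted p = 0.189). Each pair had the lower value with doxycycline, at log2 ratios of -0.80, -0.64 and -0.79, and the block gave an adjusted p of 2.4e-05. In entinostat the doxycycline difference was -0.14 ± 0.18, with an interval from -0.54 to 0.26, and the interaction was 0.64 ± 0.26 (unadjusted p = 0.0318, adjusted p = 0.314, and 0.0199 at 0.75 without the 2 libraries that stood apart).

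Btg2 (ENSMUSG00000020423, chr1:134075170-134079120, minus strand), a gene that p53 and immediate early signals are known to induce, rose in experiment 1 and with entinostat, as Cdkn1a did. The change in experiment 1 was from 25.6, 37.5 and 32 CPM to 46.4, 57.6 and 51.5 CPM. The groups did not overlap, and the log2 fold change was 0.71 ± 0.16 (1.64-fold, adjusted p = 0.0339). The call was lost without Exp1_NoDox replicate 1 (adjusted p = 0.0547), Exp1_NoDox replicate 3 (0.134), Exp1_Dox replicate 2 (0.109) or Exp1_Dox replicate 3 (0.103), and the block gave 5.5e-06. In DMSO it measured 16.8, 22.0 and 29.6 CPM without and 25.0, 63.4 and 68.9 CPM with doxycycline. The first Dox_DMSO library again lay within the untreated range, and the log2 difference of 1.20 ± 0.37 had an adjusted p of 0.0589 (0.000911 with the block, 0.000113 without the 2 libraries that stood apart). DESeq2 (adjusted p = 0.0153) called it too, as did edgeR with no filter (0.00312). It also passed without Dox_DMSO replicate 1 (0.00285) or NoDox_Entinostat replicate 1 (0.0280), making 6 of 21 alternatives.

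Entinostat took Btg2 to 78.4, 143 and 137 CPM without doxycycline and 97.6, 155 and 157 CPM with it. Replicate 1 was the lowest of each group, and no entinostat library reached down to a DMSO library. The fold change was 5.23 (log2 2.39 ± 0.38, adjusted p = 0.000243) and 2.60 (log2 1.38 ± 0.37, adjusted p = 0.00538). The interaction was -1.01 ± 0.51 (adjusted p = 0.326) and -1.57 without the 2 libraries that stood apart (adjusted p = 0.000501).

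Btg1 (ENSMUSG00000036478, chr10:96617006-96622809, plus strand) had smaller responses than its paralog. It measured 4.04, 2.72 and 3.97 CPM in NoDox_DMSO, 5.33, 5.34 and 4.91 CPM in Dox_DMSO, 5.40, 8.13 and 7.71 CPM in NoDox_Entinostat and 6.96, 6.73 and 6.34 CPM in Dox_Entinostat. NoDox_DMSO was below all other groups, and the 2 entinostat groups overlapped. Entinostat raised it 1.98-fold without doxycycline (log2 0.99 ± 0.21, adjusted p = 0.00209), and with doxycycline the log2 difference was 0.36 ± 0.21 (adjusted p = 0.147) although those groups did not overlap. In experiment 1 it went from 3.88, 5.55 and 4.69 CPM to 5.36, 7.20 and 7.11 CPM. The ranges overlapped, at a log2 of 0.48 ± 0.18 (adjusted p = 0.16, with the block 0.000698).

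**Figure D2:**
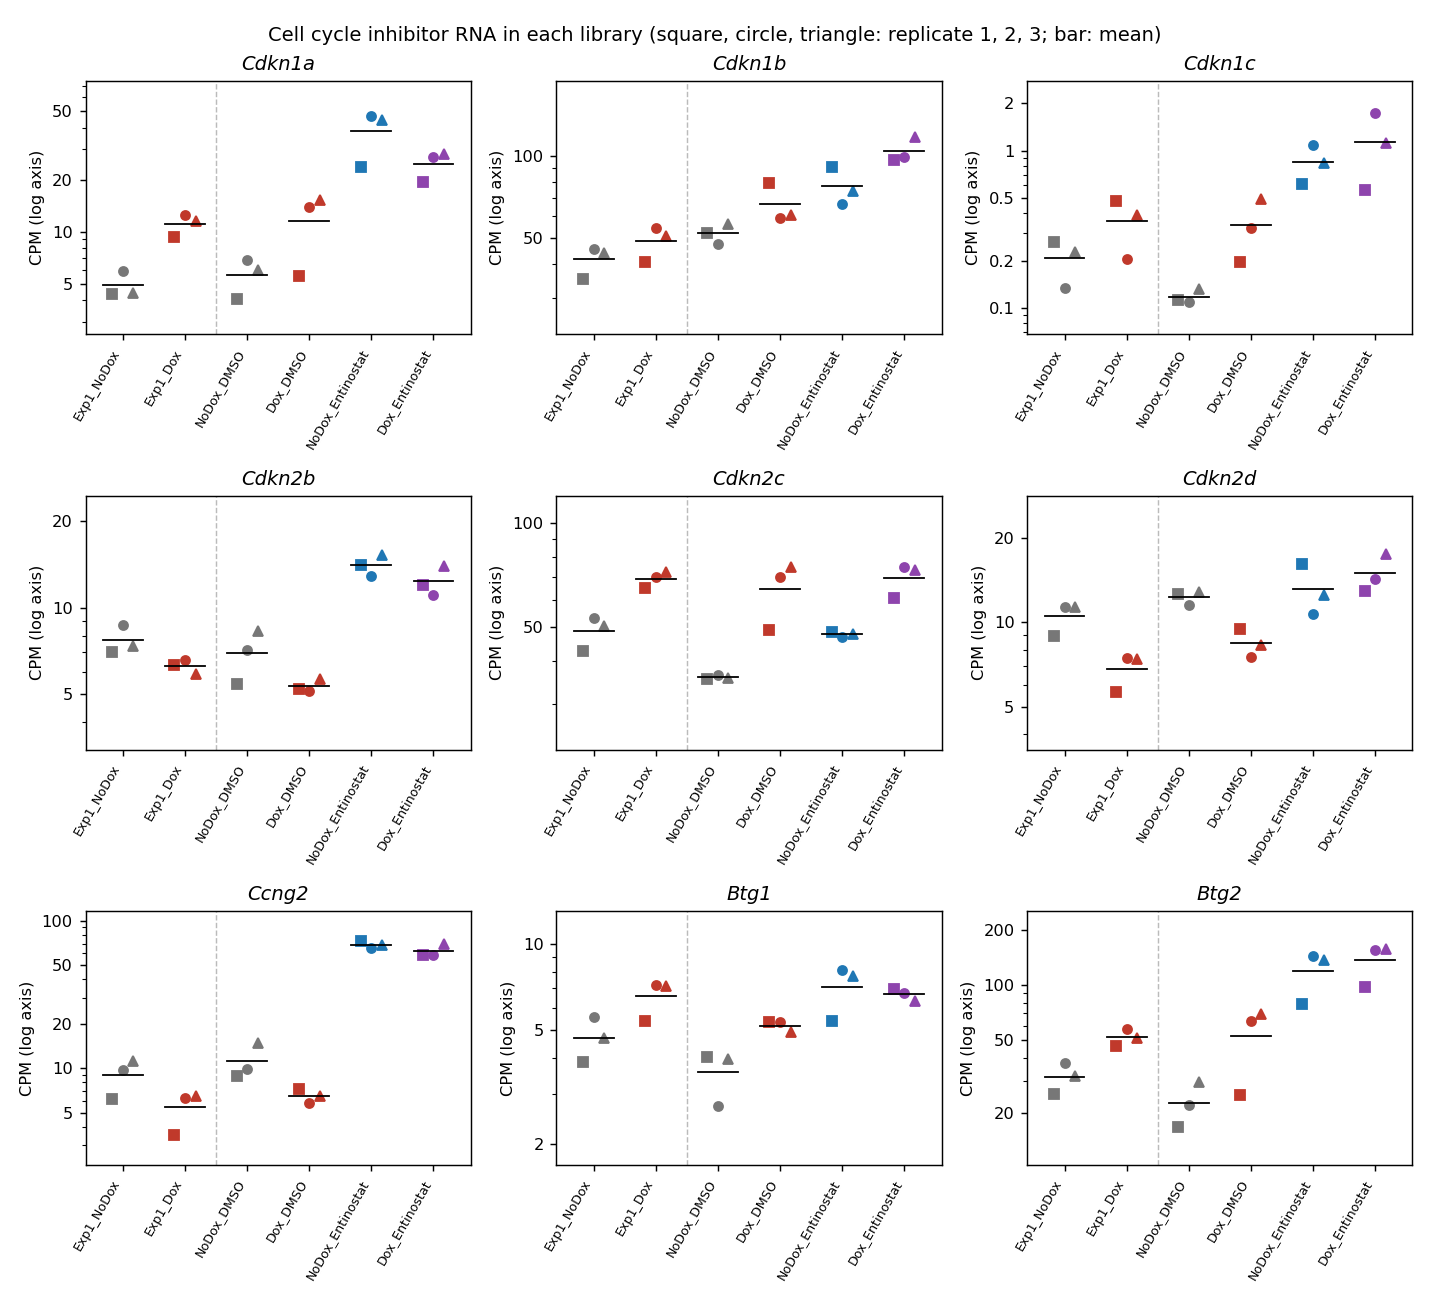
CPM of the 9 genes in each library, on a log axis, by group, with experiment 1 left of the dashed line; squares, circles and triangles are replicates 1, 2 and 3 and bars are means of 3. Ccng2 separates DMSO from entinostat by the widest gap (5.83 to 14.7 against 58.2 to 72.4 CPM), and replicate 1 of Dox_DMSO is low in the panels of Cdkn1a (5.55 CPM) and Btg2 (25.0 CPM).

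Levels of different genes were compared only as CPM per kb of merged exon. In NoDox_DMSO the most abundant member was Cdkn2c at 13.4 ± 0.204 CPM per kb (SD, n = 3), followed by Cdkn1b at 11.4 ± 0.933, Btg2 at 8.31 ± 2.35, Cdkn2d at 7.81 ± 0.45 and Cdkn2b at 5.01 ± 1.04. Ccng2 at 2.05 ± 0.569, Cdkn1a at 1.59 ± 0.403, Btg1 at 0.678 ± 0.142 and Cdkn1c at 0.0575 ± 0.00586 CPM per kb were the rarer members. In NoDox_Entinostat the order changed: Btg2 led at 43.5 ± 13.0 CPM per kb, Ccng2 stood at rank 4 with 12.6 ± 0.69 and Cdkn1a at rank 5 with 10.8 ± 3.56, while Cdkn2d was at rank 7 with 8.32 ± 1.77. Even so, Cdkn1b at 17 ± 2.74 CPM per kb remained above Cdkn1a in its group mean.

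The interaction passed the threshold for 0 of 9 members in edgeR, DESeq2 and limma-voom alike, where 0.272% of all genes were called, and for 3 of 9 at an unadjusted p under 0.05 in edgeR, where 15.8% of all genes were. Without the first Dox_DMSO and first NoDox_Entinostat libraries 6 of 9 were called, as were 7972 (51.5%) of the 15478 genes then tested. Of the 6, 4 were negative (Cdkn1a, Btg2, Btg1 at -0.77 and Cdkn2c at -0.46) and 2 positive (Cdkn2d and Ccng2). Without these libraries the count for doxycycline in DMSO was 7 of 9 (5 higher, Cdkn1c among them, and 2 lower), beside 4846 of all genes against 1401 with them. In entinostat it was 4 of 9 (3 higher, 1 lower), beside 9569 of all genes against 3614. The entinostat counts were 8 and 7 of 9 without them, beside 9891 (63.9%) and 12043 (77.8%) of all genes. Gene lists moved too: for the interaction, 0 of 20 S phase genes and 0 of 20 mitosis genes were called with all 12 libraries. Without the 2 libraries 5 and 2 were higher and 12 and 15 lower, beside 3326 of all genes higher and 4646 lower.

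**Figure D3:**
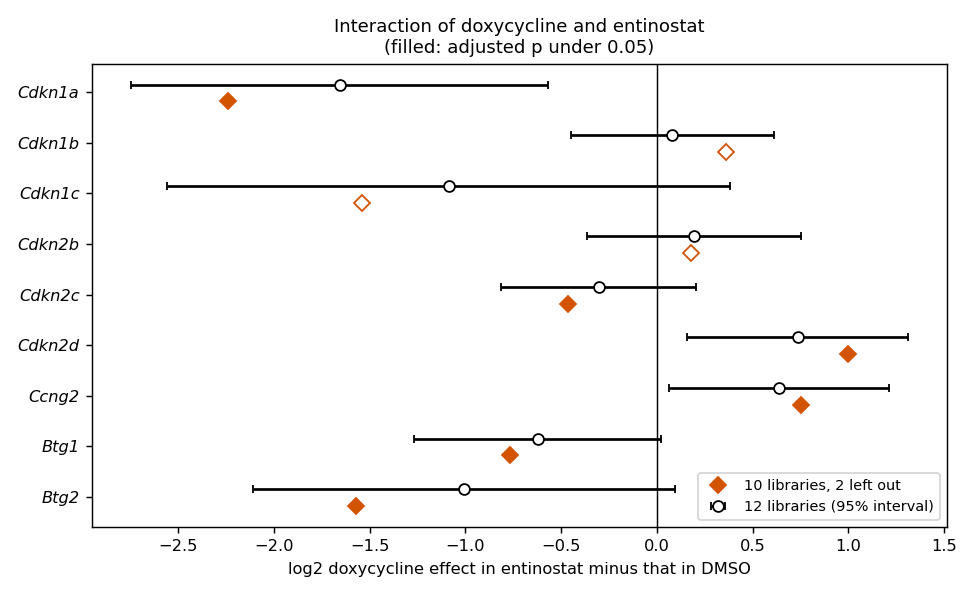
Interaction (effect of doxycycline under entinostat less its effect under DMSO, log2 units) for each gene: circles with 95% intervals from all 12 libraries, diamonds without the first Dox_DMSO and first NoDox_Entinostat libraries. No circle is filled (adjusted p under 0.05), whereas 6 diamonds are, from Cdkn1a at -2.24 to Cdkn2d at 1.0.

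The members varied together in part. Over the 12 libraries of experiment 2 the log2 CPM of Cdkn1a and Btg2 correlated at r = 0.961, and over the 6 of experiment 1 at r = 0.969. Cdkn2b and Ccng2 correlated at 0.979 in experiment 2 and 0.674 in experiment 1, and Cdkn2d and Ccng2 at 0.744 and 0.956. Cdkn2c stood apart from Cdkn2b (0.115) and Cdkn2d (-0.115) in experiment 2. These are descriptions over libraries that share their treatments. Among 9379 genes of at least 5 CPM, Grk5 followed Cdkn1a most closely (r = 0.992), then Caskin2 (0.987), Crybg1 (0.986), Cavin1 (0.983) and Fgd6 (0.983). In experiment 1 their r with Cdkn1a was 0.392, -0.139, 0.916, 0.634 and 0.210, in the same order. The closest to Ccng2 were F11r (0.996, and 0.726 in experiment 1) and Sgcb (0.993, and 0.136), and the closest to Btg2 were Dapk2 (0.991) and Ankrd46 (0.985), with 0.965 and 0.982 in experiment 1.

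The CIP/KIP and INK4 proteins among the 9 restrain cyclins and kinases of G1/S and, in part, of G2/M, and these were counted with entinostat. Of 8 tested G1/S cyclins and kinases 4 fell without doxycycline, and 7 fell and 1 rose (Ccne2) with it, where 16.9% and 29.9% of all genes were called lower. Ccne1 (cyclin E1, the partner of CDK2) fell from 95.8 to 39.6 CPM and from 161 to 56.2 CPM, at log2 fold changes of -1.27 ± 0.13 and -1.52 ± 0.13. Cdc25a, a phosphatase that activates CDK2, fell as well (log2 -1.55 and -2.01), as did Cdk6, a target of INK4 proteins (-0.86 and -1.23). Library size alone left 3 and 5 of the 8 lower and 0 and 1 higher. There 1233 and 3712 of all 15051 genes were called lower, against 2545 and 4498 in the main fit. Of 9 G2/M genes 4 fell and 1 rose (Cdc25b, 1.49) without doxycycline, and 3 fell with it, and library size alone left 1 and 3 lower, with 1 higher without doxycycline.

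Further down the pathway, each list is read beside 16.9% and 29.9% of all genes called lower without and with doxycycline, and 30.3% and 33.9% higher. Of 20 S phase genes 10 fell and 0 rose without doxycycline, and 14 fell and 1 rose with it. Cdt1 (log2 -0.99 and -1.78) and Mcm5 (-1.11 and -1.72), which license replication origins, were among those that fell. The medians of the list were -0.67 and -1.16. Library size alone left 2 and 13 of 20 lower and 0 and 3 higher, where 1233 and 3712 of all 15051 genes were called lower. Leaving out the 2 libraries that stood apart gave 17 and 15 lower and 0 and 3 higher, where 4286 and 5367 of the 15478 genes then tested were lower. Of 20 mitosis genes 5 fell and 12 fell, including Cdc20 (-1.14 and -1.41), an activator of the anaphase-promoting complex, while Nusap1 rose without doxycycline (0.45). Library size alone left 3 and 11 of the 20 lower and 2 and 1 higher. Of 13 RB and E2F genes 5 fell and 2 rose without doxycycline, and 7 fell and 1 rose with it. E2f4, a mainly repressive E2F, fell (log2 -0.98 and -1.49) and E2f5 rose (0.75 and 1.06). Under library size alone, however, 4 of 13 rose and 1 fell without doxycycline, where 5417 of all genes were called higher and 1233 lower. The CCR4-NOT and BTG partner list had 4 of 13 lower and 1 higher (Cnot6l) without doxycycline, and 9 of 13 lower with it, including Cnot9 (-0.70 and -0.95) and Prmt1 (-0.89 and -0.99), an arginine methyltransferase that binds BTG proteins. Library size alone left 1 and 7 of the 13 lower and 1 and 0 higher.

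Regulators that act on the 9 genes or their proteins formed a further list. Of 16 tested upstream regulators 4 fell and 2 rose (Klf6 and Cbx7) without doxycycline, and 12 fell and 1 rose (Cbx7) with it, where 16.9% and 29.9% of all genes were called lower and 30.3% and 33.9% higher. Library size alone left 3 and 9 of the 16 lower and 2 and 1 higher, where 1233 and 3712 of all 15051 genes were called lower. Myc, a repressor of Cdkn1a and Cdkn2b with the partner protein MIZ1, fell from 213 to 71.1 CPM (log2 -1.58 ± 0.26) and from 212 to 40.1 CPM (-2.40 ± 0.27). Bmi1, a Polycomb protein known for silencing the INK4 locus, fell in both (-0.97 and -0.97). Cbx7 rose in both (0.85 and 0.97), and Klf6 rose by 0.999 without doxycycline. With both treatments together, against NoDox_DMSO, Trp53 fell (-1.03) and Cbx7 rose (1.43). The part of these regulators in the results on the 9 genes was not tested. Dtl, the receptor of the CRL4 ligase that degrades p21, fell (-1.12 and -1.36), as did Cul4a, its scaffold (-0.79 and -1.17). In that ubiquitin ligase list 3 of 10 fell without and 6 of 10 with doxycycline. When the 2 libraries that stood apart were left out 7 and 7 fell and 0 and 3 rose. There 4286 and 5367 of the 15478 genes then tested were lower, and 5605 and 6676 higher. Of 10 other cell cycle brakes 4 rose and 1 fell (Btg3) without doxycycline, and 5 rose and 2 fell (Tob2 and Ccng1) with it. Under library size alone 7 and 5 of the 10 rose and 0 and 1 fell, where 5417 and 5770 of all genes were called higher. Tob1, of the BTG family, rose by 0.96 and 0.77 and Gadd45b by 0.78 and 1.17. Btg4, another family member, had 0 counts in the 3 NoDox_DMSO libraries and 138, 90 and 88 in NoDox_Entinostat, which was at least 31.2-fold higher against a floor of 3 counts per library. It is among the brakes called higher both without and with doxycycline. With 3, 2 and 3 counts in Dox_DMSO, Btg4 passed the filter only through the entinostat groups, so its calls are no independent support.

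The same lists were read for doxycycline. In experiment 1, 1 of 8 G1/S genes rose, which was Ccne1 (log2 0.84 ± 0.09, 86.9 to 155 CPM), and in DMSO it rose by 0.75 ± 0.13. Cdc25b, a phosphatase that acts at G2, rose by 1.0 in experiment 1 and by 1.34 in DMSO. Of 20 S phase genes 4 rose in experiment 1 (Cdc6, Slbp, Mcm7 and Gins1), where 5.26% of all genes were called higher. In DMSO 0 of the 20 passed by edgeR and limma-voom and 1 rose by DESeq2, with 4 higher and 0 lower at an unadjusted p under 0.05 in edgeR, and 10 of 20 rose without the 2 libraries that stood apart, beside 4846 of all genes in either direction. Dtl and Cul4a also rose in experiment 1, by 0.44 and 0.51. Of 9 tested other cell cycle brakes 0 rose and 1 fell in experiment 1, where 13.6% of all genes were called. In DMSO 2 of 10 rose and 1 fell, where 9.31% of all genes were called. Gadd45b fell in experiment 1 (-0.70) and in DMSO (-0.80). Those that rose in DMSO were Gadd45a, by 0.78, and Btg4, at 3, 2 and 3 counts in Dox_DMSO. In entinostat 3 of the 10 rose with doxycycline and 2 fell, where 24% of all genes were called. Btg4 (log2 1.91), Btg3 (1.12) and Cdkn3 (0.85) were the higher ones. Cdkn2a, the INK4 gene next to Cdkn2b, fell at a log2 fold change of -0.80 (196 to 112 CPM).

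**Figure D4:**
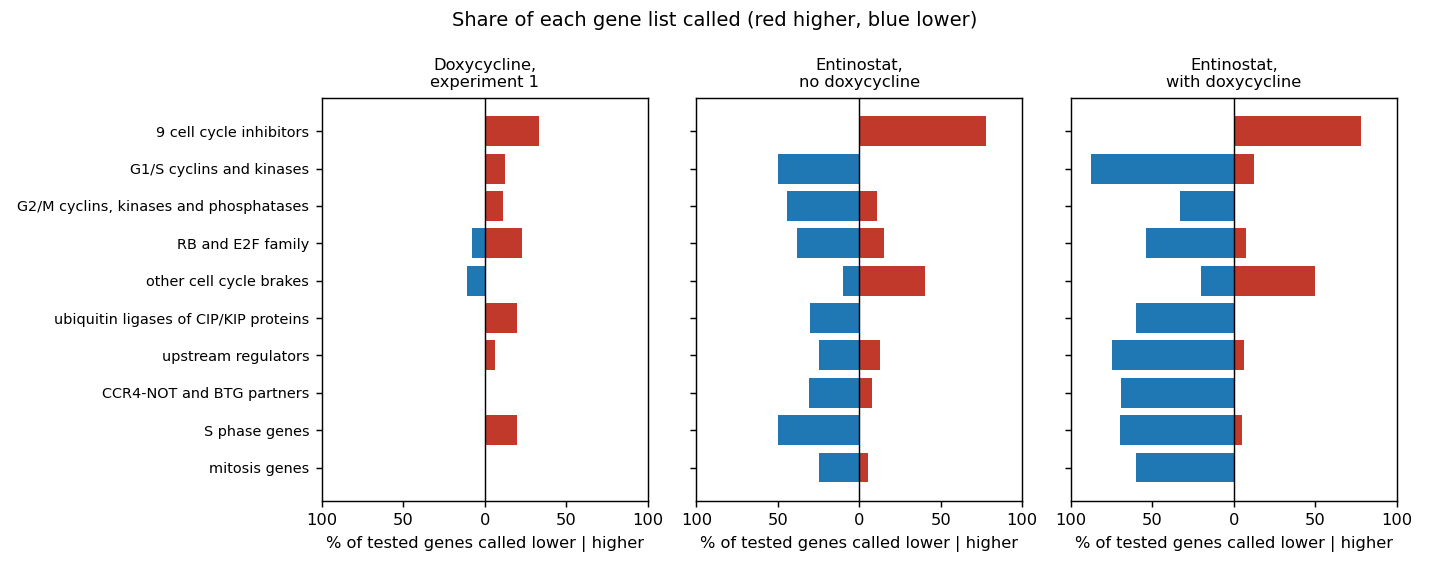
Percent of the tested genes of each list called higher (red, to the right) or lower (blue, to the left) by edgeR for doxycycline in experiment 1 and for entinostat without and with doxycycline. The 9 inhibitors have 3 and 7 and 7 genes called higher, while the G1/S list goes to 4 of 8 and 7 of 8 lower with entinostat.

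Markers of some other cell types were also higher with entinostat. The 5 mast cell and basophil genes in the table summed to between 7.05 and 15.4 CPM in NoDox_DMSO and between 42.7 and 136 CPM in NoDox_Entinostat, with Mcpt8 at 0 in the latter. In doxycycline-treated cells they summed to between 5.45 and 12.8 CPM with DMSO and between 38.4 and 83.9 CPM with entinostat. The 4 megakaryocyte genes ranged from 31.8 to 68.5 CPM in NoDox_DMSO and from 83.5 to 125 CPM in NoDox_Entinostat. The 8 macrophage genes ranged from 4.09 to 4.69 CPM in NoDox_DMSO (Mrc1 and Itgam at 0) and from 17.4 to 22.4 CPM in NoDox_Entinostat (C1qb at 0). In Dox_DMSO they ranged from 1.70 to 2.63 CPM (Adgre1, Mrc1, C1qb and Itgam at 0). In Dox_Entinostat they ranged from 2.80 to 4.66 CPM (C1qb and Itgam at 0). The 12 erythroid genes summed to between 3911 and 4040 CPM in NoDox_DMSO and between 5144 and 6225 CPM in Dox_DMSO. With entinostat they summed to between 3886 and 4339 CPM without doxycycline and between 6107 and 8132 CPM with it. In experiment 1 the sums were between 4102 and 5007 CPM in Exp1_NoDox and between 6068 and 7384 CPM in Exp1_Dox. In bulk RNA more cells of a type and more RNA per cell cannot be told apart, and the part of these genes in the results on the 9 inhibitors was not tested.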

How the data were processed

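The submitters' processing notes name bcl2fastq 2.17.1.14, STAR, DESeq2 and mm10 without saying what each did; the counter and annotation are not given in the sources used here, and the library kit named in the labels does not mark strand. The deposited values were whole-number counts per gene, with a lowest value of 1 in experiment 1. The authors' counts were tested per experiment with edgeR 4.0.16 (quasi-likelihood, TMM, filterByExpr with a count minimum of 10, all groups of an experiment in 1 fit, Benjamini-Hochberg over all genes, called at 0.05; R 4.3.3). Standard errors came from the F statistic. DESeq2 1.42.0, limma 3.58.1 (voom), other scalings and filters, a replicate block, leaving out each library, and leaving out 2 libraries together were alternatives. The test was checked on simulated data. Same-numbered libraries deviated together in experiment 1 (r = 0.829, 0.724 and 0.313) and between NoDox_DMSO and Dox_DMSO (0.334, 0.267 and 0.102), so blocked values stand there; no label says what the numbers share. Coordinates and exon lengths are GENCODE M21 on mm10; promoters are RefSeq, GRCm38.p6. Besides Spi1 and the members, the rule allowed naming up to 4 called genes of each list with the smallest adjusted p per comparison. It also allowed the 5 genes most like Cdkn1a and 2 most like each other member by Pearson r of log2 CPM (mean of at least 5 CPM). Not all of these are printed, and the genes most like a member are given only for Cdkn1a, Ccng2 and Btg2. Members and lists were chosen with earlier results of these data known. Some list genes were named outside that rule, after their values were seen: Nusap1, Ccne2 and Ccng1, and Cnot6l, Btg3 and Tob1 in 1 entinostat comparison each.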

Additional observations from a re-analysis of the deposited data

Results flagged for a closer look

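Cdkn1a was higher with doxycycline in all 3 libraries of experiment 1, whereas in entinostat its log2 difference with doxycycline was -0.63; this difference between the experiments was not tested. Btg1 likewise had a log2 difference of 0.48 with doxycycline in experiment 1 and of -0.085 in entinostat, which was not tested either. Between DMSO and entinostat the doxycycline effect on Btg1 differed by -0.62, an interaction with an adjusted p of 0.319 (edgeR).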

How the results depend on the processing

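Of the single-gene values under alternatives, 1152 kept direction and call, 55 gained a call, 29 lost it and 13 changed sign. The sign changes were of small values, and the cause was not tested: the interaction of Cdkn1b was -0.0164 with library size alone, -0.00421 with no filter and -0.022 to 0.225 leaving out each library. Without both libraries that stood apart, doxycycline in entinostat gave -0.0358 for Btg2, and entinostat gave -0.0928 for Cdkn2d without doxycycline and -0.0664 for Cdkn2c with it. Leaving out each library gave -0.0372 to 0.384 for Btg2, -0.251 to 0.020 for Btg1 and -0.000577 to 0.751 for Cdkn1c (doxycycline in entinostat), -0.0916 to 0.213 for Cdkn2d (entinostat) and -0.0707 to 0.213 for Cdkn2c (entinostat with doxycycline).

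Members called for doxycycline in experiment 1 were 1 with no filter (1504 of all genes), 9 with the replicate block (7027) and 0 to 3 leaving out each library (684 to 1508). In DMSO they were 4 with no filter (1371), 4 by DESeq2 (1940), 6 with the block (2033), 7 without both libraries (4846), 1 with the 2 groups alone (1123) and 1 to 5 leaving out each (862 to 1741). In entinostat they were 0 with library size alone (4256), 0 with no filter (4821), 2 by DESeq2 (4708), 3 with the block (6115), 4 without both (9569), 0 with the 2 groups alone (2699) and 0 to 3 leaving out each (994 to 7583). For the interaction they were 1 with no filter (206), 0 by DESeq2 (235), 1 with the block (177; Cdkn1a, -1.54), 6 without both (7972) and 0 to 2 leaving out each (9 to 3061). The block's numbers did not pair the other comparisons of experiment 2 by the limit of 0.1 on r (9 of 18 same-number pairs above it), although each of 12 libraries correlated best with its own number; blocked counts there were 8 for entinostat without doxycycline (8315), 7 with it (10796) and 8 for both treatments (10880). In experiment 2 the genes tested for these counts numbered 15051, except 15478 without both libraries and 15431 to 15616 leaving out each. They were 26903 with no filter and 12656 (DMSO) or 14749 (entinostat) with the 2 groups alone. With the 2 groups alone in DMSO only 8 members were tested. In experiment 1 they numbered 13811, except 22085 with no filter and 13936 to 14158 leaving out each. Of calls for entinostat without doxycycline 64.1% were higher, and 81.5% with library size alone; for doxycycline in entinostat 37.3% and 26%. Depth limits Cdkn1c, with 5 to 6 counts in NoDox_DMSO libraries.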
